A study of Mus musculus with 2 samples.

Results

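Interferon-stimulated genes were followed as a listed module of 35 genes, of the 33696 genes counted in the study. The members were chosen by name and not by a cutoff on a measured value, but with earlier results of these data known. All 35 had at least 1 unique molecular identifier (UMI, a tag that marks 1 captured RNA molecule) in each library. Single-cell RNA sequencing of live cells sorted from collagenase-digested, perfused lung was analysed here for a pair of libraries, 1 with the label GFI1 KO and 1 with the label WT. GFI1 is a DNA-binding transcriptional repressor of blood cell development, and its deletion in the GFI1 KO mice is in the germline, not limited to one cell type. Both genotypes were kept on the C57BL6/J background and were adults between 5 and 8 weeks old. The study's methods describe duplicate samples. By the sample titles each label stands for 1 mouse and 1 library here, so genotype, mouse and library cannot be told apart and no test between the labels was possible, and below "GFI1 KO cells" and "WT cells" stand for cells of the libraries so labelled. All intervals below are 95% intervals for counting error only.

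Type I interferons act through the receptor chains IFNAR1 and IFNAR2, which activate the kinases JAK1 and TYK2. STAT2 and IRF9 are subunits of the complex ISGF3, which then binds the interferon-stimulated response element (ISRE) in front of antiviral genes. Interferon-gamma works mainly through the GAS element. In the lung, monocytes, neutrophils, plasmacytoid dendritic cells and endothelial cells are all known to carry these transcripts at rest, and their products block viral entry, translation and replication.

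The element itself is printed for some of the genes on which the results below turn and whose promoters hold it. The core of the ISRE was searched as GAAANNGAAA and the GAS element as TTCNNNGAA, on both strands, in windows from 250 bases before to 50 bases after each RefSeq start. The windows are of GRCm38.p6 and the counts were made on GRCm39, so genes were matched by symbol, which found 25 of the 35 members. The ISRE core was held by 14 of these 25 members (56.0%) and by 3.99% of 27025 genes. The GAS letters were held by 4 of the 25 (16.0%) and by 9.55% of all genes. In the stretches of 60 bases below, written 5′ to 3′ on the strand of the gene, capitals mark the ISRE core on either strand.
Ifit1, chr19:34640779-34640838, plus strand: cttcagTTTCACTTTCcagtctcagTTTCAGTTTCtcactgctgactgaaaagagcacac
Ifit3, chr19:34583382-34583441, plus strand: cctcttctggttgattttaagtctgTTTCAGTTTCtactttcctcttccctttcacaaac
Ifit3b, chr19:34607778-34607837, plus strand: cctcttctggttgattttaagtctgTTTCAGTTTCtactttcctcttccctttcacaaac
Rsad2, chr12:26456538-26456597, minus strand: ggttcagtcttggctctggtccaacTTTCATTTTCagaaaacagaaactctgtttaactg
Isg15, chr4:156200850-156200909, minus strand: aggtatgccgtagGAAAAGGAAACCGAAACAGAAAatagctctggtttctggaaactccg
Oas1a, chr5:120907526-120907585, minus strand: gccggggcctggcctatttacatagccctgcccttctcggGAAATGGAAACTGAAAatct
Cxcl10, chr5:92349068-92349127, minus strand: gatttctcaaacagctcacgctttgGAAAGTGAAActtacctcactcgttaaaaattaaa
Isg15 holds 3 overlapping cores in this window, Ifit1 holds 2 separate ones, and the stretches of Ifit3 and Ifit3b are the same letter for letter. The other 11 matched members held no core in these windows, among them Ifi44, Oasl2, Ifit2, Irf7 and Cmpk2. These matches describe sequence only.

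Near-identical copies limit how far reads can be assigned to some members. Of the 91-base stretches in the last 500 bases of the annotated transcripts, 59.0% of those of Ifi211 also occur in Ifi205 or Mndal, 42.2% of those of Oas1a in Oas1g, 36.8% of those of Ifi209 in Ifi214, 20.9% of those of Herc6 in Gm45193, 17.7% of those of Trim30a in Trim30d, 7.31% of those of Ifi213 in Ifi206 or Ifi208 and 6.34% of those of Ifit3 in Ifit3b. The levels of these members are uncertain to that extent. Ifit1, Isg15, Rsad2, Ifi44, Ifi27l2a and Bst2 shared none.

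After filtering, 10495 cells labelled GFI1 KO with a median of 11076 UMIs and 19342 cells labelled WT with a median of 6217 UMIs remained. Cells were gated to types by markers, which placed 93.7% and 90.4% of them. Classical monocytes were 4454 of the cells labelled GFI1 KO and 287 of those labelled WT, whereas neutrophils were 18 and 1502. Gfi1 RNA was not lower under the GFI1 KO label (340 UMIs, 3.60 CPM, against 470 UMIs, 3.46 CPM), so its level does not check the labels. In total, 74 cell barcodes occurred in both libraries. CPM, counts-per-million, scale the UMIs of a gene to those of all genes except ribosomal protein, mitochondrial and Gm- genes, and since a UMI stands for 1 captured 3′ end they were not divided by gene length.

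Each member had its own distribution over the lung cell types, described first in the WT library. Summed over the 35 members, the level was 7224 CPM in classical monocytes, 6025 in plasmacytoid dendritic cells and 4155 in neutrophils. Endothelial cells at 2511 and nonclassical monocytes at 2458 CPM followed, and their intervals (2482 to 2540.4 and 2405 to 2511) overlapped. CD4 T cells had 2146, CD8 T cells 1573, B cells 1428, conventional dendritic cells 1240.1 and NK cells 763 CPM. Alveolar macrophages, with 418 CPM, were below every other type with at least 100 cells in this library.

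The high sums had different makers. Ifi27l2a, a small mitochondrial protein of the IFI27 family, was the member with the most UMIs, and it reached 2524 CPM in classical monocytes, 1102 in CD4 T cells and 1083 in neutrophils but 10.5 in NK cells and 18.2 in endothelial cells. Bst2 encodes tetherin, which holds budding virions at the cell surface. It stood at 3715 CPM in plasmacytoid dendritic cells, at 571 in endothelial cells and at 24.8 in neutrophils. Isg15 encodes a ubiquitin-like protein that is attached to viral and host proteins. It was at 749 CPM in neutrophils, 289 in classical monocytes, 105 in endothelial cells and 6.56 in alveolar macrophages.

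Neutrophils of the WT library were also above classical monocytes for Oasl2 (275 against 174 CPM), for Rtp4, a chaperone of G protein-coupled receptors (251 against 141), and for Rsad2, which encodes viperin (221 against 135). Ifi44, whose function is less clear, was found chiefly in plasmacytoid dendritic cells at 82.1 CPM and in endothelial cells at 54.3 CPM, against 18.7 in classical monocytes and 0.195 in neutrophils. The Ifi200 genes, which encode DNA-binding proteins of the AIM2-like family, were spread unevenly over the cell types. Ifi204 and Ifi211 were at 434 and 214 CPM in classical monocytes against 0.359 and 0.717 in CD8 T cells. Ifi211 was not shared evenly by the myeloid types. With cells thinned to equal depth, it was found in 32.8% of WT classical monocytes with Ifi204 and 15.2% of those without. In WT nonclassical monocytes these were 8.16% and 5.05%, in WT neutrophils 1.31% and 0%, and in WT alveolar macrophages 2.01% and 0.280%. Ifi209 and Ifi213 were also found in lymphocytes, where Ifi209 stood at 220.3 CPM in B cells and Ifi213 at 123 in CD8 T cells.

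**Figure D1:**
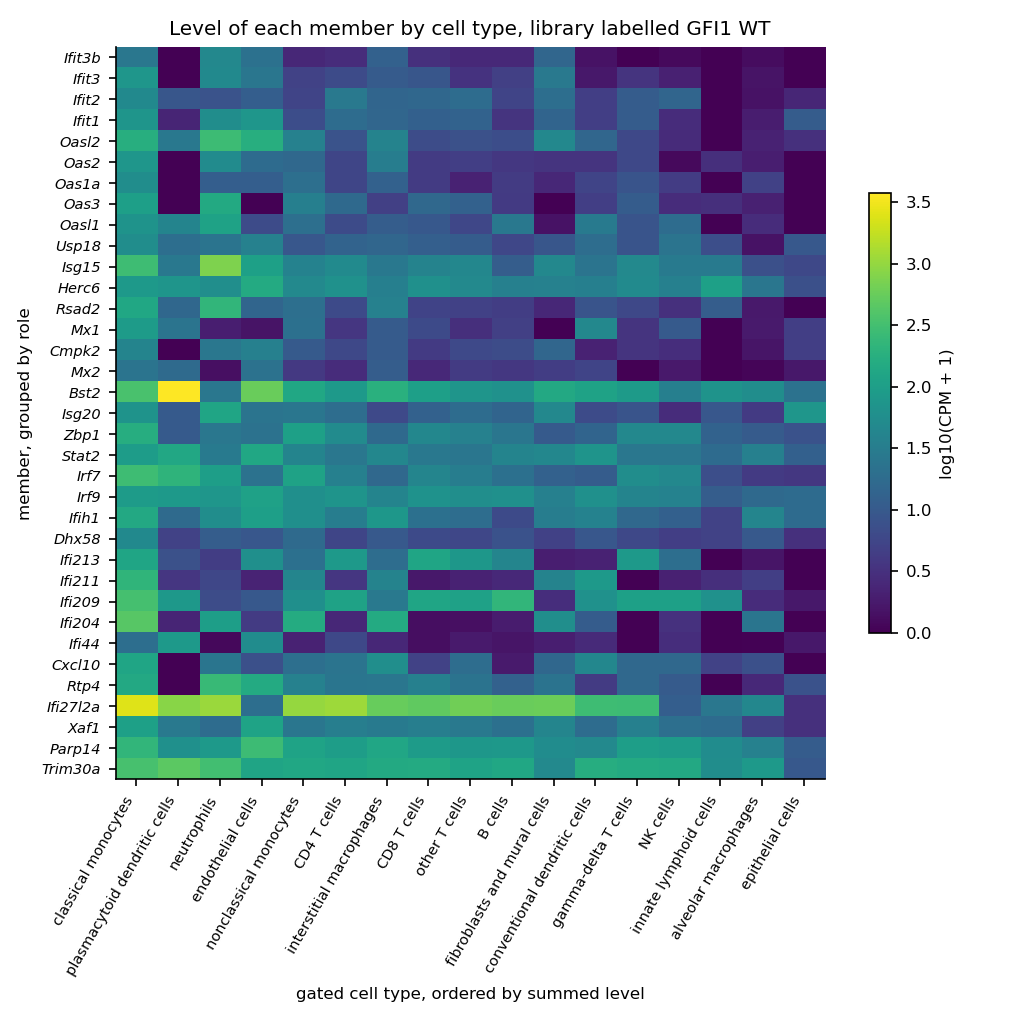
Level of each of the 35 members (rows, grouped by role) in each gated cell type with at least 50 cells (columns, ordered by summed level) in the library labelled GFI1 WT, as colour on a log10(CPM + 1) scale. Bst2 in plasmacytoid dendritic cells (3715 CPM) and Ifi27l2a in classical monocytes (2524 CPM) are the brightest cells, while Ifi204 and Ifi211 are dark in T and B cells.

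The question put to both libraries was whether these transcripts differed between the labels. Taking all cells at once, the members summed to 1862 CPM (1853 to 1870.3) in the GFI1 KO library and to 1349 CPM (1342 to 1355) in the WT library, which gave a ratio of 1.38 (1.37 to 1.39). Of the 35 members, 7 were at least 2-fold higher, led by Ifi204 (4.52) and Ifi211 (4.08) and followed by Zbp1, Irf7, Oas3, Dhx58 and Oas1a. Another 4 were at least 2-fold lower: Ifi44 (0.0305), Ifit3b (0.229), Oasl2 (0.277) and Rsad2 (0.483). Among all 16315 genes with at least 30 UMIs, 3.19% were at least 2-fold higher and 25.2% at least 2-fold lower.

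This comparison mixed cell types. Classical monocytes held 71.3% of all member UMIs in the GFI1 KO library and 8.23% in the WT library, and 47.0% against 1.54% of all counted UMIs. Without the classical monocyte gate the members summed to 1008 CPM in the GFI1 KO library and 1257 in the WT library, and the ratio was 0.802 (0.794 to 0.810). The direction over all cells therefore turned when this 1 type was left out, and the following values are within types.

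**Figure D2:**
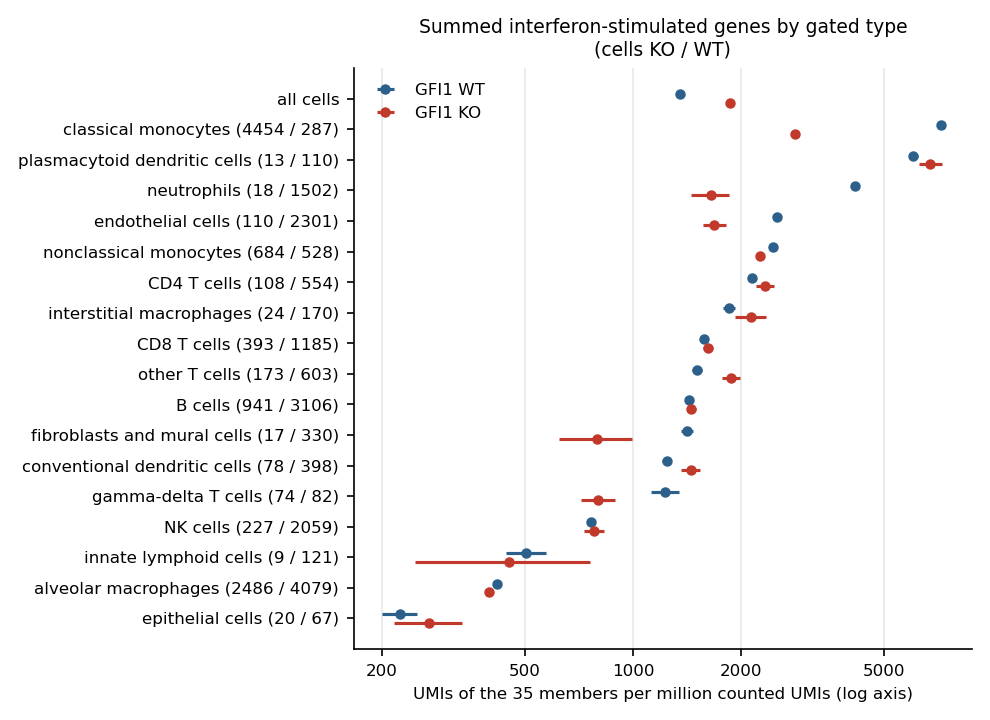
Summed CPM of the 35 members (log axis) over all cells and in each gated type, with the number of cells of each library in brackets. Points are the 2 libraries, bars are 95% Poisson intervals. The GFI1 KO point lies to the right of the WT point over all cells (1862 against 1349) and far to its left in classical monocytes (2823 against 7224).

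In classical monocytes, every one of the 35 members had a lower level under the GFI1 KO label. They summed to 2823 CPM (2808 to 2839) in the 4454 GFI1 KO cells and to 7224 CPM (7109 to 7340.1) in the 287 WT cells, a ratio of 0.391 (0.384 to 0.398). At least 2-fold lower were 27 members and 0 were 2-fold higher, against 6.73% of 11650 genes lower and 8.20% higher. The median log2 ratio of the members was -1.48 and that of all genes 0.01.

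The IFIT genes, whose products bind viral RNA ends and block translation, lay lowest as a group, with 29.2 against 219 CPM and a ratio of 0.134 (0.120 to 0.149). Ifit3b had a ratio of 0.0803 (0.0564 to 0.115), and Ifit3 was at 7.56 against 73.9, Ifit2 at 6.10 against 48.0 and Ifit1 at 13.6 against 71.9. The 3 highest cells of a library held 41 of 154 Ifit3 UMIs under the WT label and 39 of 336 under the GFI1 KO label. The counting intervals do not cover this spread between cells. No other role group had so low a ratio. The OAS genes make 2-5A, which switches on RNase L, or encode relatives of that enzyme. Of these 5, Oasl2 differed most, at 17.6 against 174 CPM (ratio 0.101, 0.0893 to 0.115), and Oasl1 least, at 33.7 against 66.2 (0.509, 0.427 to 0.611). Oas1a, Oas2 and Oas3 had ratios of 0.386, 0.337 and 0.476.

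Within the ISG15 system, Isg15 itself stood at 102 against 289 CPM, Usp18, which removes ISG15 and also restrains the interferon receptor, at 11.8 against 55.6, and the ligase gene Herc6 at 39.7 against 84.9. Among the other antiviral effectors, Rsad2 was at 13.8 against 135 CPM, a ratio of 0.102 (0.0888 to 0.118). Of its UMIs, 89 of 281 under the WT label and 75 of 613 under the GFI1 KO label came from 3 cells. Mx1, a dynamin-like GTPase that traps viral nucleocapsids, was at 18.8 against 91.1 and its relative Mx2 at 6.39 against 22.5. Cmpk2, which lies beside Rsad2 and encodes a nucleotide kinase, was at 10.5 against 40.3, Bst2 at 130.4 against 348 and the exonuclease gene Isg20 at 30.3 against 68.1. Zbp1, a sensor of Z-form nucleic acid, was one of the members nearest to the WT level, at 113 against 168.

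The factors differed unevenly. Irf7, the amplifier of type I interferon production, stood at 105 against 291 CPM and Stat2 at 30.3 against 94.0. Irf9, the DNA-binding subunit of ISGF3, was at 76.6 against 90.6 CPM, and its ratio of 0.845 (0.729 to 0.983) was nearest to 1 of all members. The RNA sensor genes Ifih1 and Dhx58, which encode MDA5 and LGP2, had ratios of 0.390 and 0.556.

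Of the Ifi200 genes, Ifi213 was at 17.1 against 124 CPM, whereas Ifi204 was at 253 against 434, and Ifi209 and Ifi211 had ratios of 0.471 and 0.405. Ifi44 was the lowest of all members, with 3 UMIs in 4454 cells labelled GFI1 KO (0.0675 CPM) and 39 UMIs in 287 cells labelled WT (18.7 CPM), a ratio of 0.00361 (0.000714 to 0.0114). Cxcl10, a chemokine for T cells, was at 17.0 against 124 CPM, and 190 of its 755 UMIs under the GFI1 KO label came from 1 cell. Under the WT label 120 of its 259 UMIs came from 3 cells. Ifi27l2a, which alone gave 41004 and 5264 UMIs, was at 923 against 2524 CPM. Without Ifi27l2a, Trim30a and Bst2, the 3 members with the highest level over all cells of both libraries, the ratio of the sum was 0.388 (0.379 to 0.397). Rtp4, Xaf1, Parp14 and Trim30a had ratios of 0.325, 0.521, 0.522 and 0.633.

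**Figure D3:**
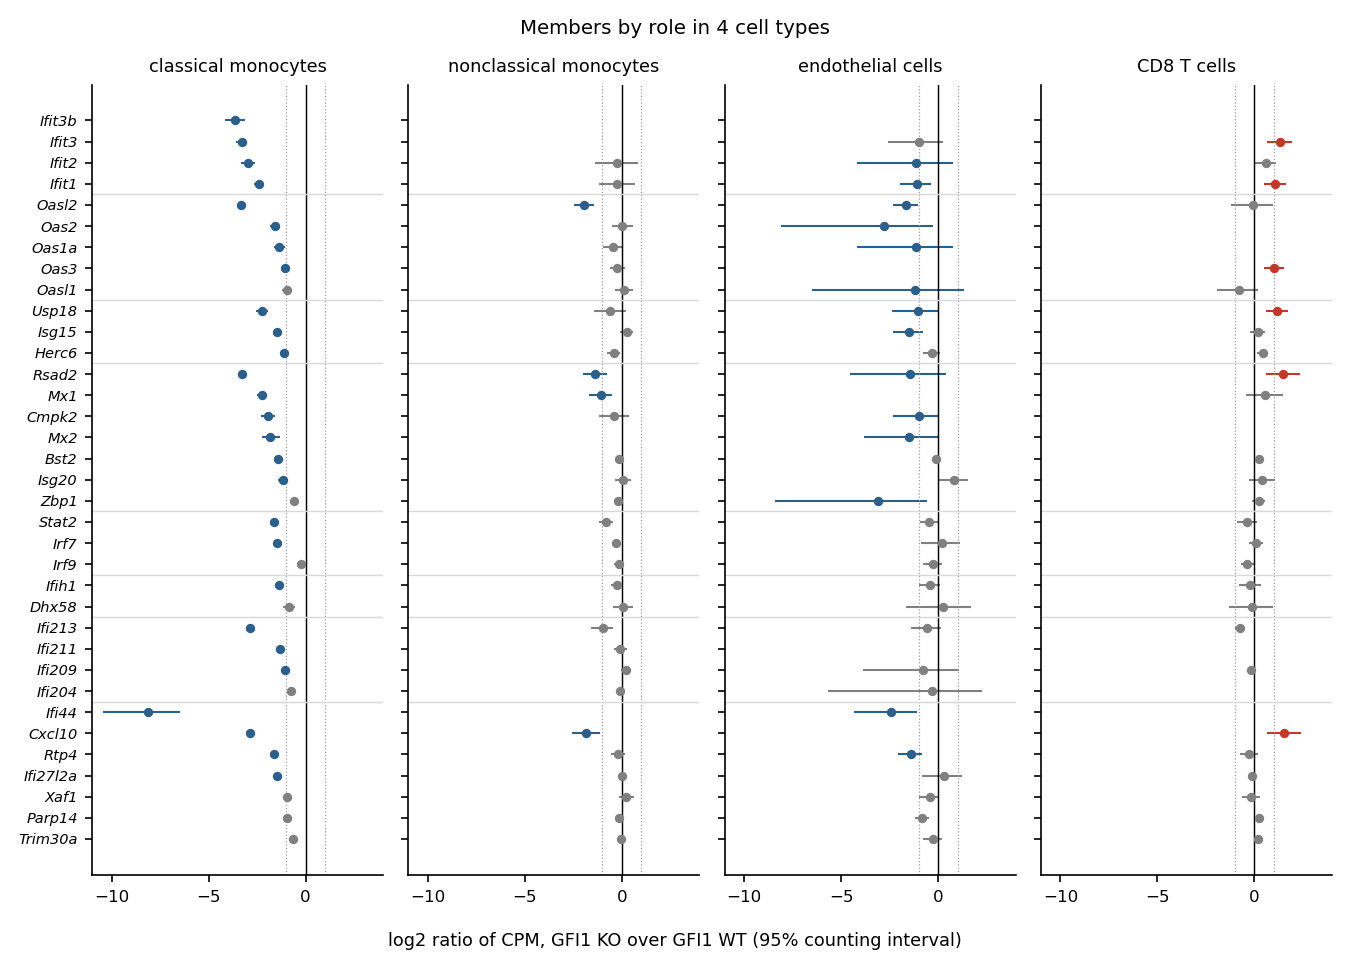
log2 ratio of CPM, GFI1 KO over WT label, of each member with at least 30 UMIs over both libraries, in 4 cell types. Bars are 95% counting intervals, dotted lines mark 2-fold, colours mark members past it, and members at 0 UMIs in 1 library are not drawn. All 35 points lie left of 0 in classical monocytes, from -8.11 (Ifi44) to -0.24 (Irf9), whereas 6 points pass 2-fold to the right in CD8 T cells.

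The cells in this gate were not alike in the 2 libraries. Their classical monocyte markers were at 6464 and 5734 CPM under the GFI1 KO and WT labels, with all 8 markers found in both. Behind these sums single markers differed in both directions, from Ly6c2 at 799.9 against 1574 CPM to Hp at 1687 against 612 CPM. The 8 neutrophil markers were at 5761 against 513 CPM and the 8 granule markers, genes of immature myeloid cells such as Elane and Mpo, at 253 against 24.9 CPM. At least 1 granule-marker UMI was found in 3073 of the 4454 GFI1 KO cells and in 42 of the 287 WT cells. Joint clustering put 4531 and 352 monocytes, those of the nonclassical gate included, into 1 cluster, where the ratio of the sum was 0.414 (0.408 to 0.421). The gate was then split by these other markers, a choice made after the values were seen.

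In cells with no granule-marker UMI and at most 2 neutrophil markers, 874 labelled GFI1 KO and 212 labelled WT, the summed level was 3452 against 7109.9 CPM, a ratio of 0.485 (0.474 to 0.497). In these cells 24 of the 35 members were at least 2-fold lower and 0 higher, against 3.82% and 3.83% of 9377 genes. Rsad2 was at 18.6 against 123 CPM, Ifit3 at 10.1 against 79.6, Isg15 at 126 against 296 and Ifi44 at 0.450 against 21.9. Irf9 again lay near the WT level (0.828, 0.684 to 1.01). The log2 ratio of the sum was -1.04 in these cells and -1.36 in the whole gate. Up to 2 neutrophil markers were still allowed in them, and the part of such markers in the result was not tested.

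MHC class II transcripts divided these low-marker cells further. MHC class II genes rise as monocytes turn into antigen-presenting cells in tissue. In cells with under 5 UMIs of H2-Aa, H2-Ab1 and H2-Eb1, 675 and 154 cells, the ratio was 0.421 (0.410 to 0.432) and 26 of 34 members were at least 2-fold lower and 0 higher, against 268 lower and 432 higher (4.84%) of 8924 genes. In cells with 5 to 19 such UMIs, 99 and 19 cells, it was 0.481 (0.448 to 0.517). In cells with 20 or more, 100 and 39 cells, the levels were 4238 and 4103 CPM and the ratio 1.03 (0.967 to 1.10). Of 27 members with at least 30 UMIs there, 4 were at least 2-fold higher (Oasl1, Isg15, Isg20 and Xaf1) and 1 was lower, against 6.27% and 5.74% of 5436 genes. Oasl1, Isg20 and Xaf1 passed the UMI minimum on GFI1 KO counts alone, with 6, 5 and 4 UMIs under the WT label. The intervals of Oasl1 (0.835 to 5.81) and Isg20 (0.911 to 7.63) included 1, so the count of 4 is uncertain. Isg15 was at 193 against 91.7 CPM (2.10, 1.39 to 3.32), and Cxcl10 was still low, with 17 against 39 UMIs (ratio 0.145, 0.0771 to 0.263). Whether the ratio differs between these groups of cells was not tested.

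**Figure D4:**
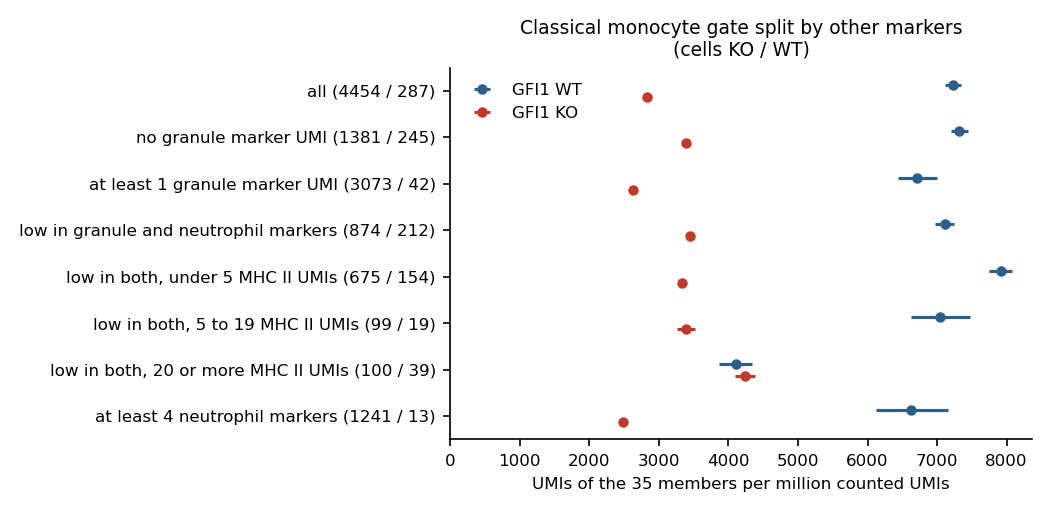
Summed CPM of the 35 members in subsets of the classical monocyte gate, with cells of the GFI1 KO and WT libraries in brackets and 95% Poisson intervals as bars. The points lie apart in all subsets, for example 3452 against 7109.9 CPM in cells low in granule and neutrophil markers, except that with 20 or more MHC class II UMIs (4238 against 4103).

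Per cell, the difference lay in the bulk of the monocytes and not only in a few bright ones. The median cell had 2365 CPM of the members under the GFI1 KO label, with quartiles of 1430.3 and 3636, and 5524 CPM under the WT label, with quartiles of 3461 and 8755. Of the cells labelled GFI1 KO, 9.47% lay above the WT median, and 13.6% of those labelled WT lay below the GFI1 KO median. The brightest cells were unequal too. The open bin at the top of the plotted range held 14 of 287 WT cells (4.88%) and 8 of the 4454 GFI1 KO cells (0.180%). Without the highest 5% of cells of each library, 223 and 14 cells, the ratio was 0.408 (0.401 to 0.416). Of 34 members 23 were then at least 2-fold lower and 0 higher. The share of all genes was not computed for these remaining cells.

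**Figure D5:**
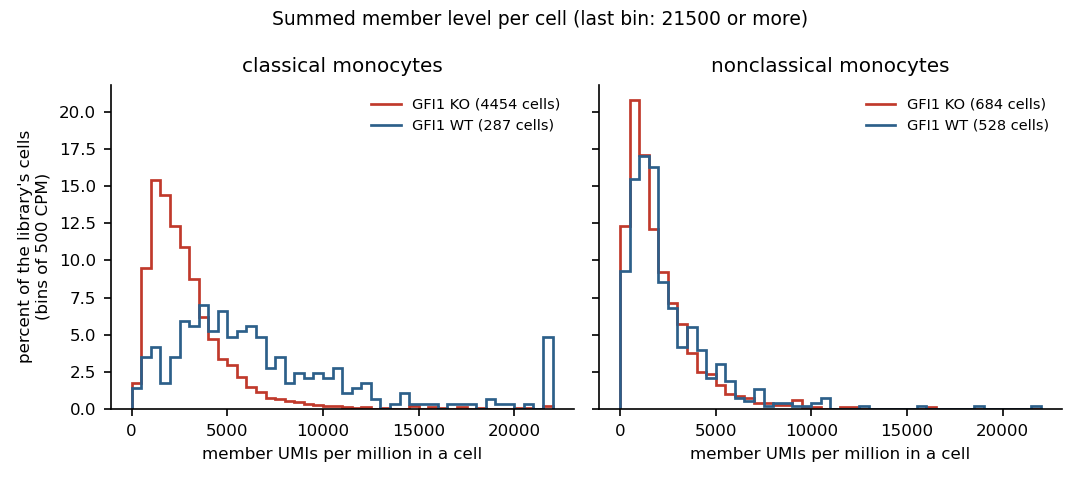
Distribution over single cells of the summed member level, in bins of 500 CPM with the last bin open, as percent of the cells of each library. In classical monocytes the WT cells are spread to higher levels (median 5524 against 2365 CPM), and in nonclassical monocytes the libraries overlap widely (1752 against 1485 CPM).

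A set of 12 core members that interferon is known to induce strongly from a low base (the 4 IFIT genes, Rsad2, Isg15, Oasl1, Cmpk2, Usp18, Mx1, Irf7 and Cxcl10) was counted per cell after each cell had been thinned to 1500 UMIs. Of the thinned classical monocytes, 46 of 4440 labelled GFI1 KO (1.04%, 0.759 to 1.38) and 25 of 286 labelled WT (8.74%, 5.74 to 12.6) had at least 4 of the 12. Without thinning these were 9.83% and 23.7%, at median depths of 11940 and 8765 UMIs. The count is a range and not a type, since 68 and 11 further cells had 3 core members and 15 and 8 had exactly 4. Neutrophils of the WT library had 95 such cells of 1398 (5.53% to 8.24%), endothelial cells 25 of 2138 (1.17%), alveolar macrophages 3 of 4071 (0.0737%) and plasmacytoid dendritic cells 0 of 108, which allows a share of up to 2.78%.

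Some core members were found together more often than others. Among thinned WT neutrophils, Rsad2 was found in 60.3% of the 68 cells with Ifit1 and in 14.4% of the 1330 without it. Among WT classical monocytes these were 43.5% of 23 and 4.56% of 263 cells, and among those labelled GFI1 KO 22.6% of 53 and 1.23% of 4387. Cxcl10 was found in 1.72% of the 232 WT neutrophils with Rsad2 and in 1.20% of the 1166 without it. Among WT classical monocytes, however, Cxcl10 was found in 27.3% of the 22 cells with Rsad2 and in 3.79% of the 264 without it. Under the GFI1 KO label these were 9.09% of 66 and 1.03% of 4374 cells. Bst2 and Ifi27l2a are not core members. Ifi27l2a was found in 1.91% of WT endothelial cells with Bst2 and 2.03% of those without. In WT neutrophils these were 60.5% and 42.7%, and in WT classical monocytes 79.2% and 82.1%.

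Genes outside the list that went with 4 or more core members were picked by their fold in both libraries and are a description of the same cells. In classical monocytes, the 10 highest were Ifit1bl1, A330040F15Rik, Slfn4, Phf11a, Phf11d, Ifi206, Znfx1, Pml, Slfn9 and Phf11b. Ifit1bl1, a relative of Ifit1, was at 218 CPM in the 46 GFI1 KO cells and 2.03 in the other cells, and at 349 and 4.24 CPM under the WT label. Ifi206 of the Ifi200 family was at 164 against 7.56 and at 268 against 34.5. Since the choice used both libraries, these values say nothing on whether the sets agree.

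Upstream of the members, the interferon genes themselves were close to absent in classical monocytes. Of 21 such genes, 0 reached 30 UMIs, with 9 UMIs of Ifnk and 3 of Ifnb1 in GFI1 KO cells and 0 of either in WT cells. The WT gate held far fewer cells, and a count of 0 in it allows up to 1.44 CPM. These counts therefore show no difference between the labels. Of 5 receptor genes with enough UMIs none was past 2-fold. Ifngr1 stood at 787 against 652 CPM and Ifnar2 at 292 against 246. Of 9 signal transducers 7 lay below 1, with a median log2 ratio of -0.23, and Stat3 and Jak1 were at 325 against 493 and 255 against 298 CPM. Of 7 inhibitors 1 was at least 2-fold lower, Socs1, against 6.73% of all genes in this type, while Ptpn6, a phosphatase that damps cytokine signals, was at 394 against 268. Of 11 upstream sensors 2 were lower, Cgas and Rigi, counts too small to be read against that share, and Sting1 was at 108 against 71.9 CPM.

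Other genes known to respond to interferon were also followed. Of 16 interferon-gamma responsive genes in classical monocytes 9 were at least 2-fold lower, against 6.73% of all genes, with a median log2 ratio of -1.12, but the immunoproteasome genes Psmb8 (411 against 386 CPM) and Psmb9 (157 against 163) were close. Of 20 further responsive genes 8 were at least 2-fold lower and all 20 lay below 1, with a median of -0.74. Ifitm3, which blocks viral entry in endosomes, was at 4222 against 5257 CPM and Slfn5 at 262 against 580.3 CPM.

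Nonclassical monocytes, the patrolling Treml4-positive cells, had sums closer to each other. The members summed to 2262 CPM (2219.5 to 2306) in 684 GFI1 KO cells and to 2458 CPM (2405 to 2511) in 528 WT cells, a ratio of 0.921 (0.894 to 0.947). Of 31 members 4 were at least 2-fold lower and 0 higher, against 4.21% and 1.76% of all genes. These 4 were Oasl2 (9.44 against 36.1 CPM), Cxcl10 (5.36 against 19.1), Rsad2 (7.51 against 19.4) and Mx1 (9.22 against 19.7), and each of them was also among those at least 2-fold lower in classical monocytes. Ifi27l2a, with 4706 and 3454 UMIs, had a log2 ratio of -0.01 and Isg15 of 0.25. Within the joint cluster that held most of these cells, 442 and 381 monocytes, the ratio was 0.736 (0.707 to 0.767). In the gate, markers of classical monocytes were at 2159 against 1306 CPM, those of interstitial macrophages at 487 against 242 and those of neutrophils at 479 against 803, and their part in the result was not tested.

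Neutrophils were too few under the GFI1 KO label for a comparison, with 18 cells, and their values stand as levels only. The sum was 1646 CPM (1454 to 1856) against 4155 CPM (4099 to 4211) in 1502 WT cells. Isg15 was at 74.0 against 749 CPM. Rsad2 had 0 UMIs, which allows up to 18.5 CPM, against 221. The gated neutrophils had a median of 10590 and 3000.5 UMIs per cell. Their own markers differed in both directions. Csf3r was at 314 against 2222 CPM and Il1r2 at 635 against 5504, but S100a8 was at 89171 against 26009.7. The cells were thus not alike under the 2 labels, and the part of this in the levels was not tested.

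Endothelial cells were the other type with many lower members. Here the sum was 1686 CPM (1562 to 1818) in 110 GFI1 KO cells and 2511 CPM (2482 to 2540.4) in 2301 WT cells, a ratio of 0.671 (0.621 to 0.725). Of 32 members 16 were at least 2-fold lower and 0 higher, against 11.0% and 4.30% of all genes. The members had 679 UMIs in the GFI1 KO cells and 28077 in the WT cells, so a member could pass the UMI minimum on WT counts alone. The call for such a member rests on very few UMIs, and the count of 16 is uncertain to that extent. Summed, the 12 core members had 63 against 3965 UMIs, a ratio of 0.441 (0.338 to 0.566). Oasl2 was at 54.6 against 172 CPM, Rtp4 at 57.1 against 153, Isg15 at 37.2 against 105, and Ifit1 had a ratio of 0.463 (0.252 to 0.782). Ifi44 had 4 UMIs, 9.93 CPM, against 54.3 (0.183, 0.0497 to 0.471), and Ifit3b had 0 UMIs, which allows up to 7.45 CPM, against 20.5. Several other members rested on 1 to 3 UMIs under the GFI1 KO label, so their intervals were wide. Bst2, the most abundant member here, had a log2 ratio of -0.09.

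The interferon-gamma responsive genes lay lower in endothelial cells, where 15 of 18 were at least 2-fold lower, against 11.0% of all genes. This count has the same limit, since the GFI1 KO library gave far fewer endothelial UMIs than the WT library. Irf1 was at 266 against 680 CPM and the guanylate-binding protein gene Gbp7 at 122 against 271. The endothelial markers themselves were at 17498 and 19000.4 CPM, the median depths were 3652 and 4843 UMIs, and markers of classical monocytes were at 94.4 against 23.8 CPM. The part of these in the result was not tested.

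CD8 T cells went the other way for a few members. Their sum was equal within counting error, 1617 CPM (1562 to 1674) in 393 GFI1 KO cells and 1573 CPM (1541 to 1607) in 1185 WT cells. Of 27 members 6 were at least 2-fold higher and 0 lower, against 3.49% and 3.55% of all genes. These were Cxcl10 (11.9 against 4.12 CPM), Rsad2 (11.9 against 4.30), Ifit3 (19.9 against 8.07), Usp18 (24.8 against 11.1), Ifit1 (23.8 against 11.5) and Oas3 (30.8 against 15.2). Ifi213 was lower, at 73.0 against 123 CPM.

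These higher members rested on few cells. Of the 24 UMIs of Rsad2 under the GFI1 KO label, 19 came from 3 cells, and of the 48 of Ifit1, 24 did. Without the highest 1% of cells of each library, 4 and 12 cells, the 12 core members were at 157 against 129 CPM (1.22, 1.07 to 1.40) in place of 219 against 151 (1.45, 1.29 to 1.63), and 2 of 25 members were at least 2-fold higher. Without the highest 5%, 20 and 59 cells, the core ratio was 1.11 (0.948 to 1.29), an interval that included 1. Of 24 members 2 were then at least 2-fold higher and 1 was lower. The share of all genes was not computed without the highest 1% or 5% of cells, so these counts have no background. The ratio of the sum was 0.946 (0.906 to 0.988) without the highest 1% and 0.885 (0.843 to 0.928) without the highest 5%. Ifng, the gene of interferon-gamma, was at 56.1 CPM (113 UMIs) in GFI1 KO CD8 T cells and 12.2 CPM (68 UMIs) in WT CD8 T cells, with a ratio of 4.60 (3.38 to 6.31). Markers of classical monocytes were at 1582 CPM in these CD8 T cells labelled GFI1 KO and 854 in those labelled WT, with all 8 markers found in both. Markers of NK cells were at 2162 against 1129 CPM and those of plasmacytoid dendritic cells at 397 against 215, and the part of these in the result was not tested.

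In the other lymphocytes the sums lay close to each other. B cells had 1452 against 1428 CPM, with 0 of 30 members at least 2-fold higher and 3 lower (Ifit1, Oasl2 and Usp18), against 1.23% and 3.75% of all genes. CD4 T cells had 2336 against 2146 CPM (1.09, 1.02 to 1.16), a ratio that fell below 1 as a mean over cells or without the 3 highest members, with 1 of 21 members higher, Cxcl10, and 1 lower, Ifi213, against 3.59% and 6.88%. NK cells had 777 against 763 CPM (1.02, 0.951 to 1.09), with 3 of 22 members higher and 5 lower, against 6.30% and 7.87%. The 3 higher members in NK cells were Irf7 (104 against 46.1 CPM), Ifi27l2a (28.9 against 10.5) and Ifi204 (16.1 against 2.20). Ifi204 and Ifi27l2a are among the members with the highest levels in classical monocytes. Markers of classical monocytes were at 1224 and 1279 CPM in these NK cells, and the part of monocyte RNA in the result was not tested. The 5 lower members were Usp18, Mx1, Ifih1, Dhx58 and Cxcl10, each with 8 or fewer UMIs under the GFI1 KO label.

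Gamma-delta T cells, on which the study centres, had 799 CPM (715 to 892) in 74 GFI1 KO cells and 1230.3 CPM (1124 to 1344) in 82 WT cells, a ratio of 0.650 (0.563 to 0.749). Only 10 members reached 30 UMIs, and Ifi27l2a alone had 13 against 111 UMIs. The 7 cells with the most member UMIs held 50.6% of them under the GFI1 KO label, and 8 cells held 31.6% under the WT label. In this gate the T cell markers summed to 4216 against 4657 CPM, with Themis at 49.7 against 762 and Cd3g at 1584 against 732. Markers of innate lymphoid cells were at 3399 against 742 CPM, with 4 of the 8 found in each library. The study reports that IL-17-producing cells were expanded among GFI1 KO gamma-delta T cells of the lung. The gates may therefore hold different subsets under the 2 labels. The part of these differences in the result was not tested. T cells with no Cd4, Cd8 or Trdc transcript, or with both Cd4 and Cd8, had 1877 against 1508 CPM (1.24, 1.17 to 1.33). The log2 ratio of this sum, 0.32, was 0.07 without the 3 highest members and 0.04 when gated after thinning.

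Among the resident and antigen-presenting cells, alveolar macrophages had 396 CPM (388 to 403) in 2486 cells and 418 CPM (413 to 424) in 4079 cells, a ratio of 0.946 (0.925 to 0.968). Of 31 members 0 were at least 2-fold higher and 3 lower (Oasl1, Mx1 and Ifi213, each under 2 CPM), against 0.487% and 4.79% of all genes. Conventional dendritic cells had 1448 against 1240.1 CPM (1.17, 1.09 to 1.25), a ratio that fell below 1 with a stricter gate or in joint clusters, with 3 of 23 members higher (Oasl1, Irf7 and Ifi204) and 1 lower, Cxcl10, at 12.7 against 44.4 CPM, against 2.05% and 5.53%. In this gate markers of interstitial macrophages were at 220.4 against 67.4 CPM, those of classical monocytes at 626 against 385 and the gate's own at 4833 against 6371, and their part in the result was not tested. Plasmacytoid dendritic cells, the main makers of type I interferon, had 6728 CPM (6247 to 7236) in 13 GFI1 KO cells and 6025 CPM (5850.2 to 6205) in 110 labelled WT, with Bst2 as their leading member under the WT label.

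Over all cells, Ifi44 had 20 UMIs in the GFI1 KO library against 940 in the WT library. Endothelial cells, where its WT level was among the highest, held 0.426% of the counted UMIs of the first library and 8.24% of the second. These totals therefore also reflect the mix of cell types. By type, Ifi44 had a ratio whose interval left out 1 in classical monocytes and in endothelial cells, as given above. It was at 0 UMIs in the GFI1 KO library and at 2 to 16 UMIs in the WT library in B cells, CD4 T cells, CD8 T cells, NK cells, alveolar macrophages and conventional dendritic cells, and the interval of the ratio included 1 in each of these 6 types. Plasmacytoid dendritic cells had 4 UMIs at 37.1 CPM against 61 UMIs at 82.1 CPM (0.452, 0.119 to 1.22), so the transcript was detected under the GFI1 KO label too, and epithelial cells had 3 against 1 UMI.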

How the data were processed

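Live lung cells of 1 mouse labelled GFI1 KO and 1 labelled WT had been sequenced with the 10x Genomics 3′ kit. The authors deposited raw UMI counts per gene and called cell, made with Cell Ranger 9.0.1, and the submitters' processing notes name GRCm39 (mm39). The 18 antibody-tag rows were not used here. Cells with at least 500 UMIs, at least 200 genes and at most 20% mitochondrial UMIs were kept, as in the study's methods, which left 10495 of 10700 and 19342 of 19515 cells with 116568283 and 162281932 UMIs. A cell was assigned to the type with the highest share of its markers detected, with at least 3 markers, and left ungated where a type of another lineage reached 50% of its markers. Scrublet in scanpy 1.11.5 called 346 and 1146 cells doublets, which were kept. Joint clusters were made with leidenalg 0.10.2.

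Levels were counts-per-million (CPM) of the counted UMIs, with exact Poisson intervals. Ratios had exact conditional binomial intervals and shares exact Clopper-Pearson intervals, all at 95%. A ratio counted towards 2-fold where the gene had at least 30 UMIs over both libraries of a type, and a count of 0 was taken to allow 3 UMIs. Counts of members are given for types with at least 50 cells in each library and at least 21 members past that minimum. For shares of cells, each cell was thinned once to 1500 UMIs and shallower cells (165 and 541) were left out. Python 3.11.15, numpy 2.4.6, scipy 1.17.1 and pandas 2.3.3 were used. The code for ratios and intervals was run on simulated Poisson counts, which hold no spread between cells or mice. That run therefore could not check how the intervals behave under such spread. Alternatives were another denominator, a mean over cells, leaving out the highest cells or members, other gates, joint clusters, other thresholds and doublet removal.

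Every member was accounted for. Full values were given for the 5 members with the most UMIs and for up to 5 with the highest and 5 with the lowest ratio in a type. Others were named for their role or because a count was 5 or fewer, after their values were seen. The members, lists and marker sets were chosen with earlier results of these data known. One gene of the pathway lists is not reported here.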

Additional observations from a re-analysis of the deposited data

Results flagged for a closer look

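The summed level of the 35 members differed between the labels in opposite directions in different cell types, and each ratio's counting interval left out 1. On the log2 scale, GFI1 KO over WT label, the sum was at -1.36 in classical monocytes, -0.62 in gamma-delta T cells, -0.57 in endothelial cells, -0.12 in nonclassical monocytes and -0.08 in alveolar macrophages. It was at 0.32 in T cells of no other class, 0.22 in conventional dendritic cells and 0.12 in CD4 T cells. These higher values depended on the processing, so the opposite directions are uncertain. In conventional dendritic cells and CD4 T cells the sign changed under some settings. In T cells of no other class the value fell to 0.07 without the 3 highest members and to 0.04 when gated after thinning. With 1 library per label, the difference between cell types was not tested.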

How the results depend on the processing

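With 1 library per label, no setting could be set against the spread between mice. No paired analysis was possible because each label has 1 library. Values are log2 ratios of the sum. Of 103 alternatives for the sum, 71 stayed within the counting interval. The sign changed in 4 for a sum whose interval left out 1: in CD4 T cells (0.12) the mean over cells and leaving out the 3 highest members each gave -0.03, and in conventional dendritic cells (0.22) a gate with a margin gave -0.07 and joint clusters -0.12. It also changed in B, NK and CD8 T cells, whose intervals included 1: -0.01, -0.07 and -0.03 with all genes as denominator, and in NK cells -0.06 without called doublets and -0.04 without the highest 1% of cells. The cause was not tested.

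Classical monocytes (-1.36) gave -1.39 with all genes as denominator, -1.29 as a mean over cells, -1.49 with a margin, -1.38 gated after thinning, -1.22 in joint clusters and -1.04 in low-marker cells. All cells (0.47) gave 0.42, 0.22, 0.49 without the highest 1% of cells and 0.39 without the 3 highest members. Gating after thinning gave 0.31 in CD4 T cells, 0.05 in conventional dendritic cells, -0.44 in endothelial cells, -0.17 in nonclassical monocytes and 0.04 in other T cells. Without the 3 highest members these were 0.11 in conventional dendritic cells, -0.81 in endothelial cells, -0.23 in nonclassical monocytes and 0.07 in other T cells. The mean over cells was 0.10 in B cells, -0.86 in gamma-delta T cells and -0.25 in nonclassical monocytes, which had -0.20 with a margin and -0.44 in joint clusters. Joint clusters gave 0.43 in NK cells and -0.02 in alveolar macrophages. CD8 T cells (0.04) gave -0.08 without the highest 1% of cells, and their 6 higher members became 2 without the highest 1% and 2 without the highest 5%, both chosen after seeing the data. The share of classical monocytes with 4 or more core members, 1.04% and 8.74%, was 9.83% and 23.7% unthinned, 0.428% and 4.55% at 6 or more, and 2.57% under the GFI1 KO label at 3 or more.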
